A study of Oryza sativa with 45 samples.

Results

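The transcriptome of transgenic rice line Ta was compared with that of the control line C in generation F4, in seedlings grown without salt. The comparison takes every array that the labels place in these lines, generation and condition, which gave 6 of the 45 arrays of the study, 3 for each line. The study followed 3 lines of Oryza sativa ssp. japonica cv. Nipponbare through generations F4, F6 and F8, with a salt treatment in F6 and descendants of salt-treated plants in F8, and the question here is how far the transgenic line differs from seed-derived plants in the earliest generation on the arrays. Each array held RNA of 1 pool of 10 whole seedlings, 15 days old, so n = 3 pools per line. No label says whether the pools were grown separately, so the p-values measure only the spread between these pools, which may be technical, and not the spread between transformation events.

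Line C was raised from seed. Line Ta came from Agrobacterium-mediated transformation and carries 1 copy of the rice transcription factor gene OsICE1, fused to a TAP-tag (a peptide tag for protein purification) and driven by the maize ubiquitin promoter, which is active in most tissues, together with a hygromycin resistance gene. Ta is 1 line with 1 copy of the transgene, so tissue culture, the insertion and the transgene product cannot be told apart in Ta against C alone. A further F4 line, NSb, is set beside them. NSb is a negative segregant, a plant that lost its transgene, from a different transgenic parent, Tb, whose OsICE1 construct used the same promoter and had no TAP-tag. NSb therefore shares tissue culture and transformation in its ancestry with Ta, but descends from another line.

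ICE1 is a basic helix-loop-helix transcription factor that is best known from Arabidopsis, where cold stabilises it and it activates the CBF genes, called DREB1 in rice. The DREB1 proteins in turn bind the promoters of genes that protect cells in cold, drought and salt. In rice, MYB4 and the trehalose-phosphate phosphatases TPP1 and TPP2 also belong to the cold response, and jasmonate signalling, with its JAZ repressors, meets the ICE1 pathway in Arabidopsis.

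Signals are log2 RMA values of 54922 probe sets, each of which is named a transcript below. A difference of 1 is a doubling of signal. The medians of the 9 F4 arrays lay between 4.46 and 4.50, and arrays of the same line correlated across transcripts with r between 0.986 and 0.990. The median SD between pools was 0.13 in C, 0.12 in Ta and 0.12 in NSb. A signal under the array median may be background, in which case a fold against it understates the change. The seedling label was checked on leaf and root genes. The mean signal of 8 light-harvesting and photosystem genes lay between 8.48 and 8.59 in C and between 8.51 and 8.62 in Ta. That of 11 root genes lay between 5.44 and 5.53 in C and between 5.55 and 5.69 in Ta. The means of both lists were above the array medians in every pool, but no pool without roots was at hand for comparison. The root mean was higher in all Ta pools than in all C pools, and a difference in root share was not tested. In whole seedlings, fewer cells of a type and less RNA per cell cannot be told apart.

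Few transcripts separated Ta from C. With limma, 17 transcripts passed an adjusted p of 0.05 and differed at least 3-fold, the thresholds of the study, which is 0.031% of all transcripts. Of these, 16 were higher in Ta (0.0291%) and 1 was lower (0.00182%). When no fold minimum was set, 69 transcripts were higher in Ta (0.126%) and 21 were lower (0.0382%), 90 in all (0.164%), of which 3 carry values identical to those of another listed probe set. At an unadjusted p under 0.05, 3748 transcripts were higher and 2732 were lower. The median difference over all transcripts was -0.01. Only 20 transcripts were 3-fold higher and 3 were 3-fold lower whatever their p, so most of the large differences also passed the test. In all 90, the Ta and C pools did not overlap, beside 8.31% of all transcripts with Ta above C and 7.21% with Ta below C. For comparison, the same fit gave 43 calls at both thresholds for NSb against C (0.0783%) and 13 for Ta against NSb (0.0237%).

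**Figure D1:**
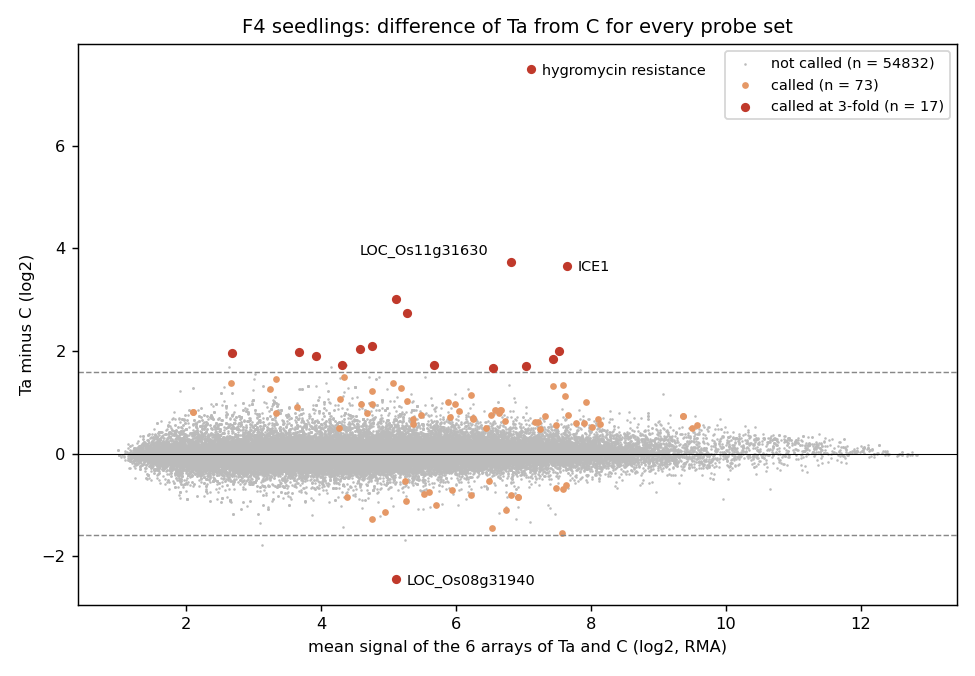
Difference of Ta from C in F4 (log2, vertical axis) against the mean signal of the 6 arrays (log2, horizontal axis), with 1 point per probe set and dashed lines at 3-fold. The hygromycin resistance transcript stands highest at 7.49, LOC_Os11g31630 and ICE1 follow at 3.73 and 3.67, and LOC_Os08g31940 is lowest at -2.45.

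The transcripts of the construct check the labels. The probe set for hygromycin B phosphotransferase, the selection marker that detoxifies hygromycin, read 10.94, 10.71 and 10.91 in the 3 Ta pools. It read 3.47, 3.15 and 3.48 in C and 3.66, 3.26 and 3.29 in NSb. The Ta pools lay far above all others, and C and NSb overlapped at a level under the array median. The difference of Ta from C was 7.49 ± 0.14 (SE), a 179-fold higher signal (adjusted p = 1.57e-07). The difference of NSb from C was 0.04 (adjusted p = 0.944), so the marker signal followed the labels in all 9 arrays.

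The ICE1 transcript (LOC_Os11g32100, chr11:18455855-18459068, plus strand, MSU release 6 of the rice annotation) read 9.56, 9.52 and 9.35 in Ta. It read 5.92, 5.64 and 5.87 in C and 6.30, 6.30 and 5.99 in NSb. Ta was 12.7-fold higher than C (difference 3.67 ± 0.12, adjusted p = 1e-05) and 9.71-fold higher than NSb (adjusted p = 2.6e-05). The signal of this probe set does not separate transcripts of the native gene from those of the transgene. The 3 NSb pools all lay above the 3 C pools, but by 0.39 only, a difference that did not pass the test (adjusted p = 0.191).

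**Figure D2:**
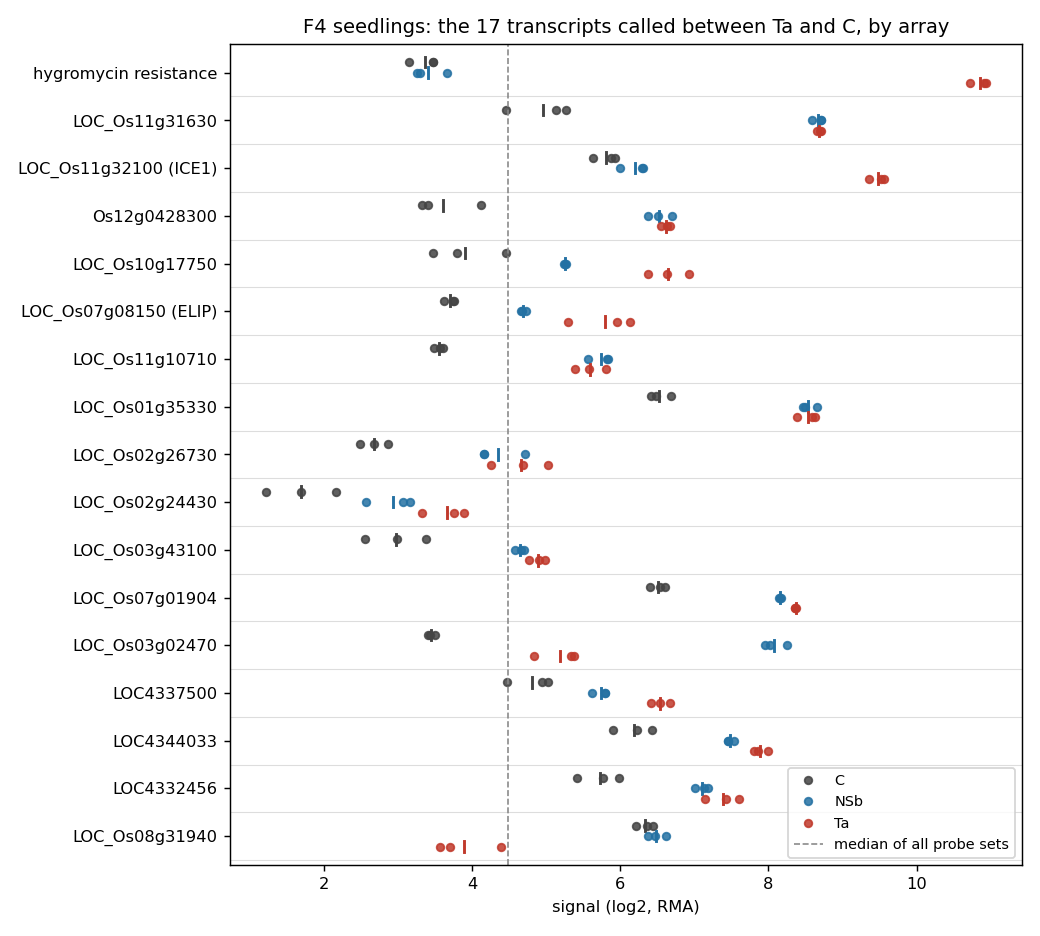
Signal (log2, RMA) of the 17 transcripts called between Ta and C in each F4 array, with 1 point per pool of 10 seedlings and a short bar at each line's mean. In all 17 the Ta pools lie apart from the C pools, and in LOC_Os08g31940 they lie between 3.57 and 4.39 against 6.21 to 6.44 in C.

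Among the 17, Ta also differed from NSb in 4, of which ICE1 and the resistance marker are 2. The Ta against NSb test uses the same Ta arrays as the comparison with C, and called 0.071% of all transcripts without a fold minimum. The third was LOC_Os08g31940 (chr8:19801419-19806091, plus strand), described only as an expressed protein and the single transcript that was lower in Ta. It read 4.39, 3.57 and 3.70 in Ta, 6.36, 6.21 and 6.44 in C and 6.47, 6.38 and 6.62 in NSb. All Ta pools lay under the array median, and C and NSb overlapped. Its signal was 5.47-fold lower in Ta than in C (difference -2.45 ± 0.19, adjusted p = 0.00358) and 6.08-fold lower than in NSb (adjusted p = 0.00217).

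The fourth, LOC_Os03g02470 (chr3:886169-888516, minus strand, an expressed protein), took a different level in each line. It read 3.40, 3.43 and 3.50 in C, 4.84, 5.37 and 5.33 in Ta, and 8.02, 7.95 and 8.26 in NSb, with no overlap between any lines. Ta was 3.33-fold higher than C (difference 1.74 ± 0.15, adjusted p = 0.0042) but 7.45-fold lower than NSb (adjusted p = 0.000159). Of the 16 transcripts higher in Ta than in C, this was the only one that passed the test as lower in Ta than in NSb.

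LOC4347553, which fell short of the fold minimum, showed the same order of lines as LOC_Os08g31940. It read 5.66, 5.84 and 5.91 in Ta, 7.29, 7.30 and 7.17 in C and 7.26, 7.32 and 7.30 in NSb. C and NSb overlapped and the Ta pools lay apart from them, 2.73-fold lower than C (difference -1.45 ± 0.08, adjusted p = 0.000473) and 2.81-fold lower than NSb (adjusted p = 0.000324). Os05g0425600 (chr5:20781897-20784530, plus strand), chosen after its values were seen, went the other way with 4.03, 4.25 and 3.89 in Ta, 2.62, 2.51 and 2.67 in C and 2.59, 2.48 and 2.77 in NSb. Its difference from C was 1.46 ± 0.11 (adjusted p = 0.0034) and its difference from NSb was 1.44 (adjusted p = 0.00309). LOC4345061, also under the fold minimum, was a further transcript of this kind, with 8.38, 8.48 and 8.42 in Ta against 7.31 to 7.54 in C and 6.97 to 7.55 in NSb. Its difference was 1.01 ± 0.14 from C (adjusted p = 0.0413) and 1.14 from NSb (adjusted p = 0.0428).

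In 6 of the 16 transcripts that were higher in Ta, the Ta and NSb pools overlapped. LOC_Os11g31630 (chr11:18029726-18031736, minus strand, a conserved hypothetical protein) read 8.70, 8.66 and 8.69 in Ta and 8.71, 8.58 and 8.70 in NSb. It read 5.14, 5.27 and 4.47 in C, so the C pools were lower and spread more widely. Ta was 13.2-fold higher than C (difference 3.73 ± 0.18, adjusted p = 0.000176), and Ta minus NSb was 0.02, with a 95% interval from -0.40 to 0.43. NSb minus C, which rests on the same C arrays, was 3.71 (adjusted p = 0.000139).

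Os12g0428300 (chr12:13663510-13668710, minus strand), which the annotation of the array places in a retrotransposon gag protein family, read 6.56, 6.64 and 6.67 in Ta, 6.38, 6.51 and 6.69 in NSb and 4.12, 3.40 and 3.32 in C. Gag proteins form the particle in which a retrotransposon copies itself. Ta was 8.04-fold higher than C (difference 3.01 ± 0.19, adjusted p = 0.000893), while Ta minus NSb was 0.10 (95% interval -0.35 to 0.54). LOC_Os11g10710 (chr11:5869547-5877561, minus strand), a protein with a kinase domain, read 5.40, 5.81 and 5.58 in Ta, 5.82, 5.57 and 5.84 in NSb and 3.58, 3.61 and 3.49 in C. The C signals lay under the array median, and the difference of Ta from C was 2.04 ± 0.12 (adjusted p = 0.00048), with Ta minus NSb at -0.15 (95% interval -0.42 to 0.13).

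LOC_Os01g35330 (chr1:19548097-19549307, minus strand) was well above the array median in every line. It carries the automatic description of a putative circumsporozoite protein precursor, a name that belongs to a malaria parasite surface protein. It read 8.39, 8.63 and 8.58 in Ta, 8.66, 8.46 and 8.49 in NSb and 6.41, 6.69 and 6.48 in C. Ta minus C was 2.01 ± 0.10 (adjusted p = 0.000248) and Ta minus NSb was -0.01 (95% interval -0.24 to 0.23). The remaining transcripts with overlapping Ta and NSb pools were LOC_Os02g26730, a hypothetical protein that was 3.93-fold higher than in C (adjusted p = 0.016), and LOC4332456, 3.18-fold higher (adjusted p = 0.0086). The call of LOC_Os02g26730 was lost without the second or the third C pool (adjusted p = 0.0729 and 0.082) or without the first or second Ta pool (adjusted p = 0.0936 and 0.0521). LOC4332456 fell below 3-fold without the third C pool (difference 1.51) or the first Ta pool (difference 1.56).

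In 3 further transcripts Ta lay above NSb without overlap but by 0.41 or less. LOC_Os07g01904 (chr7:547480-553208, plus strand, an expressed protein) varied least between pools, with 8.36, 8.38 and 8.36 in Ta, 8.14, 8.17 and 8.16 in NSb and 6.60, 6.53 and 6.40 in C. Ta minus C was 1.85 ± 0.07 (3.61-fold, adjusted p = 3.48e-05). Ta minus NSb was 0.21 (95% interval 0.04 to 0.37), which did not pass the test over all transcripts (adjusted p = 0.565). LOC_Os03g43100, an expressed protein, was 3.76-fold higher than C (adjusted p = 0.00744) and LOC4344033 was 3.26-fold higher (adjusted p = 0.00287), with Ta minus NSb at 0.24 and 0.41. Without the first Ta pool, LOC_Os03g43100 no longer passed (adjusted p = 0.0533), and without the third C pool LOC4344033 fell to a difference of 1.56.

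A last group of 4 had NSb between C and Ta, with no overlap between lines. The early light-induced protein LOC_Os07g08150 (chr7:4142341-4143574, plus strand) belongs to a family of chloroplast proteins that bind pigment and protect the photosynthetic membrane in strong light, cold or greening. It read 5.96, 6.13 and 5.30 in Ta, 4.67, 4.73 and 4.66 in NSb and 3.75, 3.74 and 3.62 in C. The third Ta pool was the lowest of its line and still above all NSb pools. Ta was 4.27-fold higher than C (difference 2.09 ± 0.19, adjusted p = 0.00557), while Ta minus NSb was 1.11 (adjusted p = 0.143) and NSb minus C was 0.98 (adjusted p = 0.053). Neither of the latter passed the test, so a graded order of the 3 lines was seen in the pools but not established for the neighbouring lines.

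LOC_Os10g17750 (chr10:8914330-8915324, minus strand, a hypothetical protein) read 6.64, 6.92 and 6.38 in Ta, 5.26, 5.25 and 5.27 in NSb and 3.79, 4.47 and 3.47 in C. Ta was 6.66-fold higher than C (adjusted p = 0.0042), and Ta minus NSb was 1.39 (adjusted p = 0.143). LOC4337500 read 6.54, 6.68 and 6.41 in Ta, 5.62, 5.80 and 5.80 in NSb and 5.02, 4.94 and 4.47 in C. Its difference of Ta from C was 1.73 ± 0.15 (3.32-fold, adjusted p = 0.0042), and 1.56 without the third C pool, which is under 3-fold. LOC_Os02g24430, an expressed protein, was the faintest of the 17, with 3.89, 3.76 and 3.33 in Ta, 2.56, 3.16 and 3.07 in NSb and 1.69, 2.17 and 1.22 in C. All 9 of its signals lay under the array median, and its 3.90-fold difference had the largest adjusted p of the 17 (0.0346). Leaving out either the first or the third C pool, or any 1 Ta or NSb pool, ended its call, with an adjusted p of up to 0.162.

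The F6 and F8 pools of Ta and C are separate plants on separate arrays, and in these most of the 17 F4 differences were seen again. Of the 16 transcripts that were higher in F4, 10 were higher in Ta and passed the test without a fold minimum in F6 (0.071% of all transcripts did so in that direction). The number was 10 in F6 under salt (0.193%), 12 in F8 (0.59%) and 13 in F8 with salt-stressed ancestors (0.364%). In all 4 conditions, 10 of the 16 passed. These were the resistance marker, ICE1, LOC_Os11g31630, Os12g0428300, LOC_Os10g17750, LOC_Os01g35330, LOC_Os02g26730, LOC_Os03g43100, LOC_Os07g01904 and LOC4344033. The median difference of the 16 was 1.99 in F4, 1.52 in F6, 1.61 in F6 under salt, 1.73 in F8 and 1.79 in F8 with salt-stressed ancestors, while the median over all transcripts stayed between -0.01 and 0.01. Because the 16 were chosen on their F4 values, a higher median in F4 is to be expected from the choice.

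**Figure D3:**
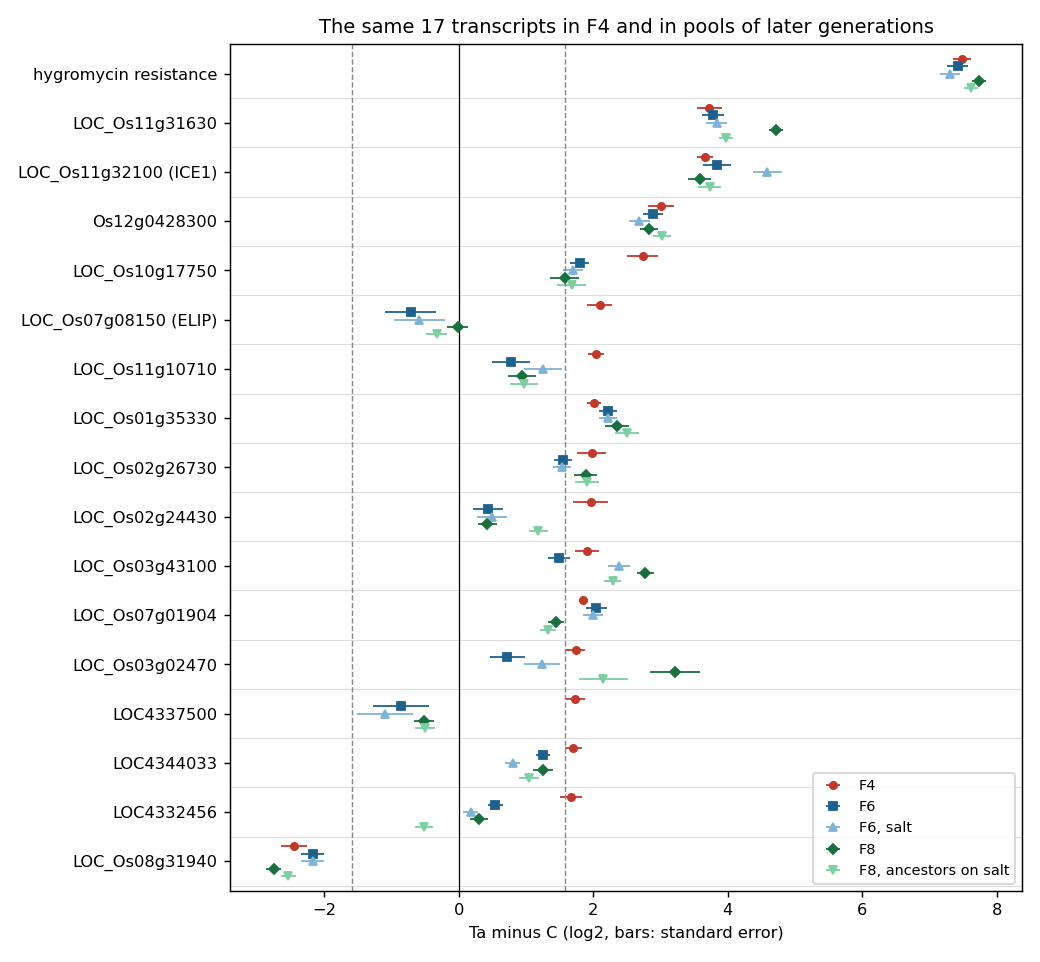
Ta minus C (log2, horizontal axis) for the 17 transcripts in F4 and in 4 other sets of pools, with bars of 1 standard error and dashed lines at 3-fold. ICE1 lies between 3.58 and 4.59 in every set, LOC_Os08g31940 between -2.75 and -2.17, and LOC_Os07g08150 falls from 2.09 in F4 to between -0.72 and -0.02 in the others.

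ICE1 was higher in Ta by 3.84 in F6, 4.59 in F6 under salt, 3.58 in F8 and 3.73 in F8 with salt-stressed ancestors. LOC_Os08g31940 was lower in Ta in all 4 as well, by -2.17, -2.17, -2.75 and -2.54. In F8, for example, it read 3.94, 4.17 and 4.05 in Ta, 6.68, 6.94 and 6.81 in C and 6.77, 6.57 and 6.69 in NSb. LOC4347553 repeated its F4 difference too, at -1.40, -1.22, -1.09 and -1.16 (adjusted p between 1.39e-07 and 6.25e-05). LOC_Os03g02470 was less even, with differences of 0.72 in F6 (adjusted p = 0.421), 1.24 in F6 under salt (adjusted p = 0.0577), 3.22 in F8 (adjusted p = 0.000261) and 2.15 in F8 with salt-stressed ancestors (adjusted p = 0.0089). LOC_Os11g10710 was higher by 0.94 and 0.97 in the 2 sets of F8 (adjusted p = 0.0409 and 0.0454), while its differences of 0.78 in F6 and 1.26 in F6 under salt did not pass (adjusted p = 0.411 and 0.0715).

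For 4 of the 17, the difference of Ta from C was smaller in F6 and in F8 than in F4 by the test of the change itself. That test called 0.461% of all transcripts as decreasing from F4 to F6 and 0.381% from F4 to F8. The 17 were chosen for large F4 differences, and the test uses the same F4 arrays again. Some decrease is therefore to be expected from the choice alone. The same limit holds for changes of other transcripts called in F4. The early light-induced protein changed by -2.81 ± 0.47 from F4 to F6 (adjusted p = 0.007) and by -2.11 ± 0.47 from F4 to F8 (adjusted p = 0.0403). In F6 it read 4.18, 3.54 and 3.42 in Ta against 4.86, 5.21 and 3.22 in C. In F8 it read 2.42, 2.67 and 2.72 in Ta against 2.49, 2.84 and 2.53 in C. All Ta pools of F6 and all pools of both lines in F8 lay under the F4 array median of 4.48. These signals may be background, so a difference may be understated. The Ta and C pools overlapped in both generations, and the third C pool of F6 stood well under the other C pools of F6. The difference of Ta from C in F6 was -0.72 with that pool (adjusted p = 0.635) and -1.32 ± 0.27 without it (adjusted p = 0.0261), opposite to F4. LOC4337500 behaved likewise. It changed by -2.60 to F6 (adjusted p = 0.0158) and by -2.25 to F8 (adjusted p = 0.0321), the third C pool of F6 read 5.68 beside 7.56 and 7.81, and the difference in F6 went from -0.86 (adjusted p = 0.581) to -1.53 ± 0.28 without it (adjusted p = 0.0145). Without the same pool, LOC_Os11g10710 was higher in Ta in F6 by 1.13 (adjusted p = 0.0409), so that 11 of the 16 passed in F6 in the F4 direction and 2 in the other, beside 0.45% of all transcripts higher and 0.604% lower in that fit.

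The remaining transcripts with a smaller difference in later pools were LOC4332456, with changes of -1.13 to F6 (adjusted p = 0.0166) and -1.37 to F8 (adjusted p = 0.00237), and LOC_Os02g24430, with changes of -1.53 (adjusted p = 0.0298) and -1.54 (adjusted p = 0.0256). The change from F4 to F8 no longer passed for the early light-induced protein when any 1 F4 pool of Ta or C other than the third Ta pool was left out (adjusted p between 0.0665 and 0.129). That of LOC4337500 was lost without any 1 of these pools other than the first C pool (adjusted p between 0.0513 and 0.103), and that of LOC_Os02g24430 without the third C, the first Ta or the second Ta pool (adjusted p between 0.0797 and 0.0828). From F4 to F6, leaving out the third C pool or the second Ta pool gave an adjusted p of 0.0549 or 0.0586 for LOC4332456 and 0.0549 or 0.0581 for LOC4337500. LOC_Os02g24430 lost that call without the same pools or the first Ta pool (adjusted p between 0.0753 and 0.095). The change of the early light-induced protein to F6 and that of LOC4332456 to F8 passed with any 1 F4 pool of Ta or C left out.

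Of the 53 transcripts that were higher in F4 and passed only without the fold minimum, 8 were higher and passed the test in F6 (0.071% of all transcripts), 7 in F6 under salt (0.193%), 13 in F8 (0.59%) and 10 in F8 with salt-stressed ancestors (0.364%). In the latter, 2 passed in the opposite direction (0.337%). Of the 20 that were lower, 1 passed in the same direction in F6 (0.0874% of all transcripts in that direction), 1 in F6 under salt (0.202%), 1 in F8 (0.608%) and 2 in F8 with salt-stressed ancestors (0.337%). With salt-stressed ancestors, 1 of the 20 passed in the opposite direction (0.364%). The median difference of these 20 was -0.83 in F4 and lay between 0.06 and 0.20 in the other sets. They too were chosen on their F4 values, so a difference nearer to that of all transcripts is to be expected in other pools. In F4 itself, leaving out any 1 of the 9 arrays took the count without a fold minimum from 90 to between 26, without the first Ta pool, and 79.

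Named transcripts among the higher ones included LOC_Os10g28350, a dioxygenase of the methionine salvage cycle that recycles sulphur from ethylene and polyamine synthesis. It read 5.14, 5.70 and 5.28 in Ta, 5.71, 5.42 and 5.66 in NSb and 4.21, 4.02 and 4.22 in C, and Ta was 2.34-fold higher than C (adjusted p = 0.0258), a call that was lost without any 1 array other than the second Ta pool (adjusted p up to 0.153 over all alternatives). It was also higher in F6 (0.93, adjusted p = 0.0405), in F8 (0.87, adjusted p = 0.0351) and in F8 with salt-stressed ancestors (0.90, adjusted p = 0.0397), and differed by 0.49 in F6 under salt (adjusted p = 0.266). LOC4332608 is NAS1, a nicotianamine synthase that makes a chelator with which plants move iron and from which rice makes its root-released siderophore. It read 6.50, 6.97 and 6.89 in Ta, 6.01, 6.21 and 6.31 in NSb and 5.57, 5.48 and 5.90 in C, with Ta minus C at 1.13 ± 0.16 (adjusted p = 0.0413). This call was lost when any 1 of the 9 arrays was left out (adjusted p up to 0.208 over all alternatives). In the other 4 sets of pools its difference lay between -0.20 and 0.06. In F6 without salt and in both F8 sets, its means in C and Ta lay between 3.10 and 3.99. These are under the F4 array median of 4.48 and may be background, where a difference is understated. Under salt in F6 the means were 4.81 in C and 4.76 in Ta. LOC_Os07g32630, a glycosyltransferase of the family that attaches UDP-sugars to small molecules, was 2.05-fold higher in F4 (adjusted p = 0.0384), and its difference was smaller in F6 and F8 (adjusted p of the change 0.012 and 0.0174). Its F4 call was lost without any 1 array other than the first C pool (adjusted p up to 0.291 over all alternatives).

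Other named transcripts in this range, with their differences from C, were LOC4335304 (1.38), LOC4338260 (1.27), LOC_Os04g58050 (1.25), LOC4351321 (1.13), LOC4352349 (1.07) and LOC4338091 (1.00). LOC4335304, LOC4338260 and LOC_Os04g58050 were higher in Ta and passed the test in all 4 later sets of pools, at 0.62 to 2.19. LOC4352349 and LOC4338091 passed in the 2 F8 sets only, at 0.48 to 0.83, and LOC4351321 in none. For these 6, Ta minus NSb lay between -0.53 and 0.39 and passed the test in none (smallest adjusted p = 0.36).

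The lower transcripts were led by LOC_Os01g29804 (chr1:16692935-16699719, plus strand, an expressed protein), which read 6.81, 6.83 and 6.73 in Ta, 6.54, 6.21 and 6.63 in NSb and 8.01, 8.57 and 8.44 in C. At 2.93-fold lower than C (adjusted p = 0.0112) it fell just short of the fold minimum. In F6 and F8 its difference was 0.16 and 0.34, and the change from F4 passed the test (adjusted p = 0.00467 and 0.00106). Its mean signal in F6 was 3.54 in C and 3.70 in Ta, under the F4 array median of 4.48. It may be background there, where a difference is understated. In F8 the means were 5.32 in C and 5.66 in Ta. LOC_Os04g41640, a hevein family protein of the kind that binds chitin and takes part in defence against fungi, read 7.08, 7.28 and 7.09 in Ta, 6.66, 6.83 and 6.83 in NSb and 7.77, 7.75 and 7.95 in C. Ta minus C was -0.68 ± 0.09 (adjusted p = 0.0418), which was lost without any 1 of the 9 arrays (adjusted p up to 0.474 over all alternatives), and the difference lay between -0.08 and 0.36 in the other 4 sets of pools. The others named were LOC4335518 (2.43-fold lower), LOC4341927 (2.13-fold), LOC4335744 (1.90-fold), LOC9268769 (1.75-fold), LOC4328842 (1.75-fold), LOC4352768 (1.63-fold) and LOC4328879 (1.45-fold). Of these, LOC9268769 was also lower than NSb, at 6.46, 6.38 and 6.41 in Ta against 7.49, 7.33 and 7.57 in NSb and 7.16, 7.32 and 7.19 in C (adjusted p = 0.00385), but its difference from C was between -0.04 and 0.24 in the other 4 sets of pools.

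The cold pathway of ICE1 was examined with a list of 24 genes that includes ICE1. Besides ICE1 itself, 1 gene passed the test, 0 were lower, and the median difference was 0.04 beside -0.01 over all transcripts. That gene was MYB4 (LOC4336407), a MYB transcription factor of the rice cold response. It read 6.31, 6.73 and 6.39 in Ta, 6.60, 6.45 and 6.59 in NSb and 5.63, 5.46 and 5.42 in C. The Ta and NSb pools overlapped above all C pools, and Ta minus C was 0.97 ± 0.12 (adjusted p = 0.0258), with Ta minus NSb at -0.07 (95% interval -0.34 to 0.20). The difference of MYB4 from C was smaller in F6 (-0.13, adjusted p of the change 0.0166), and was 0.47 in F8 (adjusted p = 0.0242).

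The DREB1 genes are the rice counterparts of the CBF genes that ICE1 activates in Arabidopsis. Of the 9 DREB1 genes measured, 0 passed the limma test and 1, DREB1E, was higher at an unadjusted p under 0.05. DREB1A, DREB1B and DREB1G were chosen after their values were seen. DREB1A read 4.31, 4.84 and 4.07 in Ta and 4.11, 4.26 and 4.38 in C, with a difference of 0.16 (95% interval -0.24 to 0.56). DREB1B read 1.67, 2.93 and 1.81 in Ta and 1.90, 1.62 and 1.72 in C, so 1 Ta pool stood above the rest, and the difference was 0.39 (95% interval -0.29 to 1.07). DREB1E and DREB1G differed by 0.37 and 0.41 (adjusted p = 0.35 and 0.458). The trehalose-phosphate phosphatases OsTPP1 and OsTPP2, which make the sugar trehalose from its phosphate, differed by 0.64 (adjusted p = 0.183) and 0.52 (adjusted p = 0.286). COLD1, a regulator of chilling sensing, read between 7.26 and 7.28 in all 6 pools. Over the list, 5 genes were higher and 0 lower at an unadjusted p under 0.05, beside 6.82% and 4.97% of all transcripts. The 5 include ICE1, the gene carried by the construct.

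**Figure D4:**
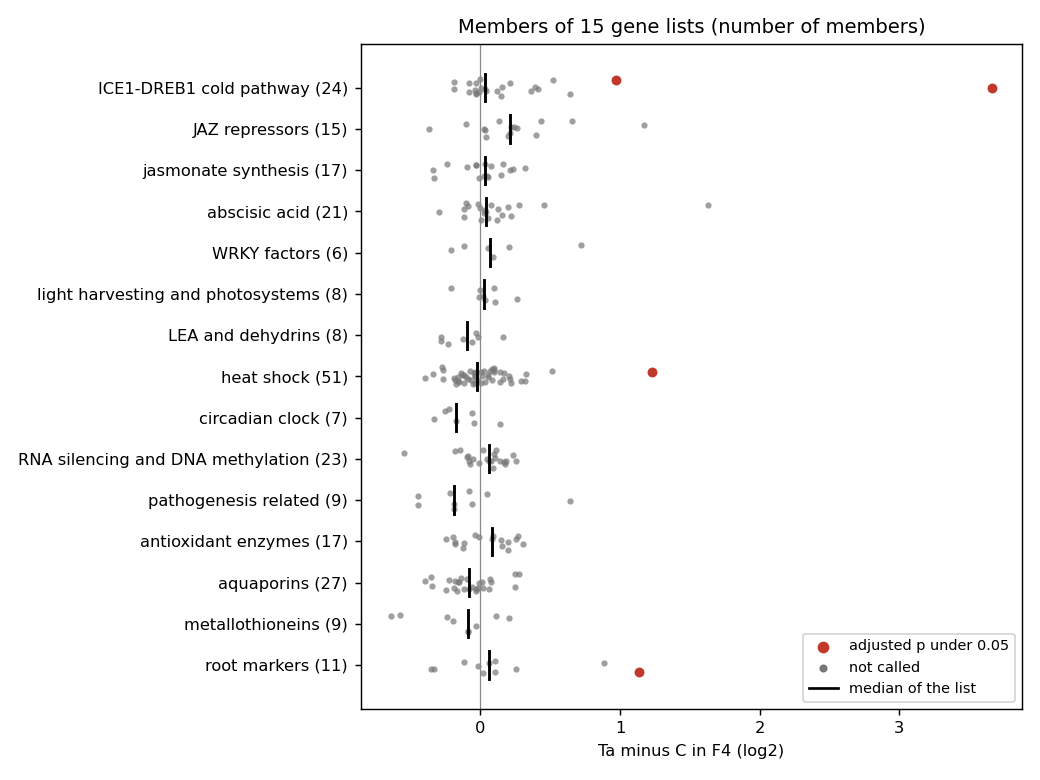
Ta minus C in F4 (log2, horizontal axis) for the members of 15 gene lists, with 1 point per transcript and a bar at each list's median. List medians lie between -0.19 and 0.22, and red points, ICE1, MYB4, NAS1 and the HSFA2C record, are the 4 members that passed the test.

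Across all 15 lists, 4 of 251 distinct members passed the test as higher and 0 as lower, beside 0.126% and 0.0382% of all transcripts. The 4 include ICE1, the gene carried by the construct, and LOC_Os10g28350, the dioxygenase. In 12 lists 0 passed the test. At an unadjusted p under 0.05, 29 of the 251 were higher and 24 were lower. Over all transcripts, 6.82% were higher and 4.97% lower at that level. The JAZ repressors hold back jasmonate responses and are themselves induced by jasmonate. Their median was 0.22, with 13 of 15 above 0, beside 46.6% of all transcripts. At an unadjusted p under 0.05, 6 were higher. For NSb against C, on the same C arrays, the median was 0.44. There 5 members passed the test as higher without a fold minimum, beside 0 for Ta against C. The share of all transcripts for NSb against C is given here only at both thresholds (0.0783%). The 5 therefore stand without a base rate of their own. The median of Ta minus NSb was -0.19. JAZ10 read 6.86, 6.93 and 5.92 in Ta, 7.36, 7.16 and 7.57 in NSb and 5.99, 5.02 and 5.19 in C. The third Ta pool fell among the C pools, and the difference of 1.17 ± 0.32 did not pass the test (adjusted p = 0.203). JAZ6 differed by 0.66 (adjusted p = 0.107). Of the 17 jasmonate synthesis genes 0 passed, with a median of 0.04.

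ABA8OX1 (LOC_Os02g47470), an abscisic acid 8'-hydroxylase that breaks this stress hormone down, had the largest difference of the 21 abscisic acid genes. It read 8.86, 9.15 and 7.96 in Ta, 9.77, 9.71 and 9.76 in NSb and 6.76, 7.13 and 7.18 in C. The lines did not overlap and the third Ta pool was again the lowest of its line. The difference of Ta from C was 1.63 ± 0.27, over 3-fold, but did not pass the test (adjusted p = 0.0724), and NSb minus C was 2.72 (adjusted p = 0.00455). Among 6 WRKY factors, regulators of defence, OsWRKY71 read 6.42, 6.54 and 5.57 in Ta, 7.12, 7.03 and 7.07 in NSb and 5.68, 5.43 and 5.25 in C. Here too the third Ta pool fell among the C pools, and the difference was 0.72 (adjusted p = 0.282).

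The lists with lower medians also held no called member. The 7 circadian clock genes had a median of -0.18, with 6 of 7 below 0, beside 53.4% of all transcripts. At an unadjusted p under 0.05, 4 were lower, beside 4.97% of all transcripts. GI, a flowering-time and clock protein, stood at -0.23 (adjusted p = 0.213). The 1 member above 0 was CCA1, a transcription factor of the clock, at 0.14 (adjusted p = 0.457). For NSb against C the median of this list was -0.24, and 2 members passed the test as lower without a fold minimum. Again no share of all transcripts at that threshold is given beside them. The 9 pathogenesis-related genes had a median of -0.19, the 9 metallothioneins, small metal-binding proteins, a median of -0.09, with MT4C at -0.58 (adjusted p = 0.0707), and the 27 aquaporins, water channels, a median of -0.08, with OsTIP2;2 at -0.40 (adjusted p = 0.0754). Late embryogenesis abundant proteins and dehydrins (8 genes), antioxidant enzymes (17 genes), genes of RNA silencing and DNA methylation (23 genes) and photosystem genes (8 genes) had medians between -0.09 and 0.09. Of 51 heat shock genes, 1 was called, but its gene record joins the names HSFA2C and ARD1 and its probe set is annotated as the dioxygenase LOC_Os10g28350 described above, so it is described as the dioxygenase here, though it stands among the 4 called members. Of the 11 root genes, NAS1 was called, and its neighbour in the same pathway, NAS2, read 6.08, 6.26 and 6.33 in Ta and 5.15, 5.08 and 5.78 in C (difference 0.88, adjusted p = 0.109). The part of the root share of the pools in the NAS1 result was not tested.

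Finally, the genes next to the called ones were examined. For 7 of the 17 with a place in the reference gene order, the nearest 3 measured genes on each side gave 42 neighbours, of which 0 passed the limma test, while 10 were higher and 3 lower at an unadjusted p under 0.05, beside 6.82% and 4.97% of all transcripts. The 6 neighbours of the native ICE1 gene differed by -0.08 to 0.28, and the 6 neighbours of LOC_Os08g31940 by -0.47 to 0.33. The paper places the inserted transgene on a chromosome other than that of the native gene. The genes around the insertion were not examined. The smallest adjusted p was 0.0884, near LOC_Os11g10710.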

How the data were processed

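The authors hybridised RNA of whole-seedling pools to Affymetrix RUSGene 1.1 ST arrays, and deposited 1 table of log2 values, which Affymetrix Expression Console had normalised and summarised by RMA. Program versions and settings are not given in the sources used here. The deposited log2 values of 54922 probe sets were used as they are, and on every array 4714 of them equal a probe set listed before them. The number of arrays limits the precision.

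Group means of the 9 F4 arrays of C, Ta and NSb were fitted with limma 3.58.1 in R 4.3.3 (moderated variances, 2-sided tests, Benjamini-Hochberg adjustment over all probe sets, no covariates), so that the 3 lines share 1 estimate of spread. Calls needed an adjusted p under 0.05 and at least 3-fold. F6 and F8 were fitted separately with 18 arrays each, and changes between generations with the 27 arrays without salt or salt history. No test compared levels across generations, and later signals are set beside the F4 array median only as a guide to background. The statistics were tested on simulated data. Tables and figures used Python 3.11.15 with pandas 2.3.3, numpy 2.4.6 and matplotlib 3.10.9.

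Loci, descriptions and coordinates come from the array annotation (MSU release 6) given with 348 probe sets; 24080 probe sets have 1 gene symbol in the platform annotation, 95 several and 30747 none. Gene order is that of the RefSeq assembly ASM3414082v1, of which no coordinates were used. Lists were matched by symbol, symbols that fit several genes were dropped (8 symbols) unless 1 carried the rice prefix, and 2 of 17 lists with fewer than 3 members were left out. Named were all transcripts called at both thresholds, the 10 highest and 10 lowest with a gene symbol or description among those called without the fold minimum, up to 4 members of a list and the 5 smallest p-values of each change. The members and lists were chosen with earlier results of these data known. Alternatives were an SD filter, a level filter, centring, robust variances with an intensity trend, a fit of only the 6 arrays of Ta and C, all 45 arrays, the replicate number as a block, identical probe sets counted once, and each array left out. Promoter motifs were planned and not run, because no promoter sequence was used here. The authors' own fold changes and p-values, given with the paper, were not used.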

Additional observations from a re-analysis of the deposited data

Results flagged for a closer look

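The difference of Ta from C changed between generations, by the limma test of the change itself, for 4 transcripts called in F4. They were chosen on F4 arrays that this test uses again, so some decrease is to be expected from the choice. The values are changes in Ta minus C on the log2 scale. They were -2.81 (F4 to F6) and -2.11 (F4 to F8) for the early light-induced protein LOC_Os07g08150, -1.53 and -1.54 for LOC_Os02g24430, -2.60 and -2.25 for LOC4337500, and -1.13 and -1.37 for LOC4332456. In F8 the Ta means of LOC_Os07g08150, LOC_Os02g24430 and LOC4337500 were 2.60, 2.48 and 3.95. These are under the F4 array median of 4.48 and may be background.

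Of the 5 smallest p-values from F4 to F6, the changes were 0.94 for probe set 15850668, -3.03 for LOC4341871, -1.70 for LOC4348248, 1.17 for probe set 15885029 and -1.12 for LOC4331891. LOC4348248 was 1 of the 69 transcripts higher in Ta in F4 (0.96, adjusted p = 0.0137), and its difference was -0.74 in F6 and -0.52 in F8. Probe set 15885029 was 1 of the 21 lower ones (-1.14, adjusted p = 0.0176), with a difference of 0.02 in F6 and 0.01 in F8. LOC4341871 differed by 1.27 in F4, -1.76 in F6 and 1.20 in F8.

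From F4 to F8, the changes were 2.42 for LOC_Os07g34570, an oxidoreductase that depends on FAD, -1.18 for LOC4344703, which is CCA1, a transcription factor of the circadian clock, 2.19 for LOC_Os11g34460, an F-box protein, -1.37 for LOC4337188 and -0.97 for LOC4346474. None of these 5 passed the limma test between Ta and C in F4 (smallest adjusted p = 0.0569).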

How the results depend on the processing

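None of the 17 transcripts called at both thresholds, nor of the 20 named without the fold minimum, changed direction between Ta and C in F4 under any alternative run. Of the 17, 9 passed in every alternative that tested them: the resistance marker, ICE1, LOC_Os11g31630, Os12g0428300, LOC_Os11g10710, LOC_Os01g35330, LOC_Os07g01904, LOC_Os03g02470 and LOC_Os08g31940. LOC_Os02g24430 failed in 10 of 16 alternatives and LOC_Os02g26730 in 6 of 17. Of the 20 named without the fold minimum, 1 (LOC4347553) passed in every alternative. LOC4345061 failed in 9 and LOC9268769 in 7 of 17. The count of 17 became 11 with only the 6 arrays of Ta and C, which kept 10 of the 17, and ranged from 13 (without C replicate 3) to 18 with 1 array left out. The count of 90 without the fold minimum became 26 with the 10% of probe sets of highest SD, 451 with a level filter, 318 with an intensity trend, 20 with 6 arrays, 887 with all 45 arrays and 153 with identical probe sets counted once, and ranged from 26 to 79 with 1 array left out. Without C replicate 2 or 3 it was 35 or 33, without Ta replicate 1 or 2 it was 26 or 42, and without an NSb array 40 to 46. The counts of changes from F4 to F6 and F8, 309 and 302, ranged from 72 to 330 and from 169 to 281 with 1 F4 array left out (72 and 169 without Ta replicate 2, 194 and 184 without Ta replicate 1, 118 and 203 without C replicate 3). Without replicate 3 of C in F6, chosen after its values were seen, they were 1215 and 512, and Ta against C in F6 gave 11 of the 16 higher transcripts in the same direction and 2 in the opposite, among 247 higher and 332 lower over all transcripts, against 39 and 48 with it. The cause of these shifts was not tested.

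Deviations of pools from their line means correlated with r between -0.07 and 0.11 for the same replicate number. For different numbers r lay between -0.15 and 0.11. Between Ta and C, r was 0.004, 0.083 and 0.109 for the same number and between -0.117 and 0.033 for different numbers. These values are too few to decide whether the numbers pair the pools. With the replicate number as a block, the paired fit called 15 at both thresholds and 30 without the fold minimum.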
